A study of Homo sapiens with 18 samples.

Results

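The monocyte and macrophage receptor genes CD14, CD36, CD86, CD68, TREM1 and OSCAR were followed across 2 human acute myeloid leukaemia cell lines and across clones of these lines labelled as knockouts of CASP2, which encodes the protease caspase-2. The 6 genes were taken by name from the deposited expression table, and all 6 were found among 2262 genes whose symbol could be settled there, out of 5069 distinct sets of values. RNA sequencing had been done on bulk cultures, with 3 libraries in each of 6 groups and 18 libraries in all. OCI-AML2 cells are labelled as carrying normal NPM1 (NPM1WT) and OCI-AML3 cells as NPM1c+, the mutated form whose protein is displaced to the cytoplasm. The parental group of each line is labelled caspase-2 WT. Clone 1 and clone 2 of each line are labelled caspase-2 KO, made with CRISPR/Cas9, so each knockout group is 1 clone. All cells were untreated and had been in culture for under 2 weeks. The labels do not say that the 3 libraries of a group came from separate cultures, and the p-values measure the spread between these libraries only, which may be technical.

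Monocytes and macrophages sense microbes, debris and other cells through surface receptors that appear as myeloid precursors mature. CD14 is a lipid-anchored protein that hands lipopolysaccharide to the Toll-like receptor TLR4 and its partner LY96. CD36 is a scavenger receptor for oxidised lipoproteins and fatty acids. CD86 is a ligand that co-stimulates T cells through CD28. CD68 is a heavily glycosylated protein of late endosomes and lysosomes that also reaches the surface and is a common macrophage marker. TREM1 and OSCAR are activating receptors with an immunoglobulin fold and no signalling motif of their own. TREM1 signals through the adaptor TYROBP and OSCAR through the Fc receptor gamma chain, encoded by FCER1G.

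The table did not list each gene once, and the values used rest on how its lines were read. Under the 6 symbols it held 13 lines, of which 9 were used and 4 dropped. The same values stood in 2 lines under CD14, under CD36 and under CD86. For OSCAR the same values also stood under LYSMD4 with the 3 values of OCI-AML3 clone 1 rotated, and the order of these values decided for OSCAR. CD68 and TREM1 had a single line each, accepted because its parental means differed by a log2 ratio under 0.6. The dropped lines under CD14, CD36, CD86 and OSCAR held other values. The one under CD14 was settled for SLC22A5, and those under CD36, CD86 and OSCAR were single lines settled for no gene. The one under CD36 was at 0.95 to 2.79 TPM in every group mean. The one under OSCAR rose in OCI-AML2 (2.18 to 4.04 and 3.27 TPM), opposite to the values used. It fell in OCI-AML3 (5.81 to 3.09 and 2.99 TPM). The one under CD86 had group means of 63.7 TPM in OCI-AML3 parental cells, 79.0 TPM in clone 1 and 76.1 TPM in clone 2, which is far from the values given here for CD86. In OCI-AML2 that line rose from 164 TPM to 198 TPM in clone 1 and 224 TPM in clone 2, where the CD86 values used fell. TPM, a relative transcript abundance, scales reads by gene length and library size, so levels of different genes can be set side by side, and the number of reads behind a value is unknown.

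Promoter sequences are shown for CD14, the gene with the largest rise, and for CD68 and TREM1, which fell, because RefSeq lists a single start for each of these 3. They are RefSeq windows of build GRCh38.p14, from 250 bases before the start site to 50 after it, written along the gene. Windows were found for 5 of the 6 genes. The table has 2 windows for CD86 and 6 for CD36, and these data do not tell which start was used. OSCAR had no entry. Capitals mark matches to 3 short motifs searched on both strands, GAGGAA (the core bound by PU.1), TGANTCA (AP-1) and TTNNGCAA (a C/EBP-like site). The CD14 window is chr5:140633126-140633425 on the minus strand, the CD68 window chr17:7579388-7579687 on the plus strand, and the TREM1 window chr6:41286633-41286932 on the minus strand.
CD14: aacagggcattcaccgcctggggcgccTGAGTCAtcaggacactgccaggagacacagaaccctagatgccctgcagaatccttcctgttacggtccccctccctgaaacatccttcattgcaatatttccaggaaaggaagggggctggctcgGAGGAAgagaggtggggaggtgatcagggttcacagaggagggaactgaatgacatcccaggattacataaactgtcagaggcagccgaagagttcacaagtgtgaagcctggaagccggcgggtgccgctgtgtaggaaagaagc
CD68: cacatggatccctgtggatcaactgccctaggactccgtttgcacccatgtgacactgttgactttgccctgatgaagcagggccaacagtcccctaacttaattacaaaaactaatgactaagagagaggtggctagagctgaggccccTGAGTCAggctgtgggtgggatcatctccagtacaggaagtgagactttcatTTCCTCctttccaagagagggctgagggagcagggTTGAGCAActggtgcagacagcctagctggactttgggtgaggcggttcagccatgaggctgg
TREM1: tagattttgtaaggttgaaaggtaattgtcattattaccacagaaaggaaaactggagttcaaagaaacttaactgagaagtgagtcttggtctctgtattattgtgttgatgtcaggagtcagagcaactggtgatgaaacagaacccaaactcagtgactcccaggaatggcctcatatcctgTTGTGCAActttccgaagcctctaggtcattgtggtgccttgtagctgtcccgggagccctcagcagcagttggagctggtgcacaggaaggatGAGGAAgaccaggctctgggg
The CD14 window holds TGAGTCA and GAGGAA, starting at positions -223 and -96, where -1 is the last base before the start site. The CD68 window holds TGAGTCA at -100, a match to the PU.1 core on the other strand at -48 and TTGAGCAA at -13. The TREM1 window holds TTGTGCAA at -65 and GAGGAA at position 30 after the start, and no TGANTCA. No 2 matches overlap. Among all 35116 windows of this length, 27.9% held GAGGAA, 7.71% TGANTCA and 10.5% TTNNGCAA on either strand. GAGGAA thus stood in the gene that rose and in both genes that fell. These matches describe letters and are not measured binding sites.

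On the log2(TPM + 1) scale, the mean correlation of each library with the others of its group was 0.993 or higher. The OCI-AML3 clones lay close to each other (r = 0.996 between their means over 4413 tested sets) and further from their parental cells (r = 0.880 and 0.879). In OCI-AML2 the clones correlated at 0.959 with each other and at 0.942 and 0.922 with the parental cells. CASP2 itself stood at 28 to 30.11 TPM in OCI-AML3 parental libraries and at 26.34 to 35.39 TPM in the 6 OCI-AML3 clone libraries, while in OCI-AML2 it went from 35.32 to 37.29 TPM down to 3 to 5.06 TPM. A CRISPR edit need not lower mRNA, so this level does not check the OCI-AML3 labels, and directions drawn there are those of libraries labelled as knockouts. Of 12 genes listed for the identity of acute myeloid leukaemia lines only HOXA9 and ANPEP had a settled symbol. HOXA9 was at 53.1 to 171 TPM in every library. ANPEP (CD13), a myeloid surface enzyme, was at 27.0 to 70.8 TPM in OCI-AML3 and near 0 in OCI-AML2, at 0.08 to 0.65 TPM. The other genes of that list were not analysed here.

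In OCI-AML3 clones, CD14, CD36 and CD86 rose to 27.9 to 61.7 times the parental level, CD68 and TREM1 fell to 12.3% to 26.2% of the parental level, and OSCAR did not pass the test. A gene counted as changed in a line where both clones passed in the same direction, by limma on log2(TPM + 1) with an adjusted p under 0.05. By that rule 3 of 6 were higher and 2 of 6 lower, beside 28.7% higher and 38.3% lower of all 4413 tested sets. Both clones of a line were set against the same parental libraries, so their calls are not independent. The receptors could come only from the 2067 tested sets with a settled symbol, of which 35.8% were higher and 49.6% lower. As 67.1% of all sets and 85.4% of the settled ones were called in one direction or the other, a call by itself sets none of these receptors apart. All 6 passed the minimum of 1 TPM in 3 libraries.

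**Figure D1:**
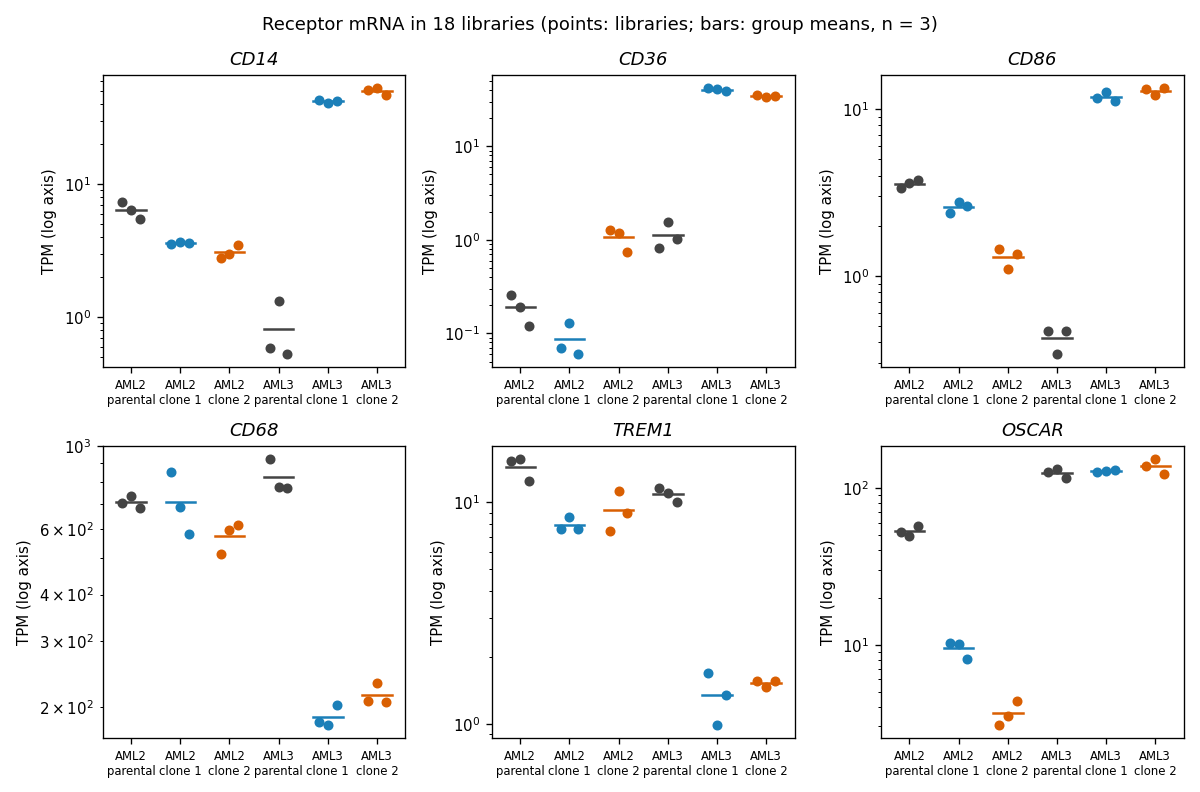
Level of each receptor gene in every library, in TPM on a log axis that differs between panels, with points for libraries and bars for means of 3. CD14, CD36 and CD86 are highest in the OCI-AML3 clones, CD68 and TREM1 are lowest there, and OSCAR is lowest in the OCI-AML2 clones.

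For CD14, the lipopolysaccharide co-receptor, OCI-AML3 parental libraries gave 0.59, 1.32 and 0.53 TPM. Those of clone 1 gave 43.18, 40.65 and 42.45 TPM, and those of clone 2 gave 50.76, 52.63 and 47.11 TPM. Every clone library was far above every parental one. The group mean went from 0.813 ± 0.440 TPM to 42.1 ± 1.30 and 50.2 ± 2.81 TPM (SD, n = 3 each), 51.8 and 61.7 times the parental level. The log2 changes were 4.60 (95% interval 4.33 to 4.86, adjusted p = 1.06e-15, limma) and 4.84 (4.58 to 5.11, adjusted p = 5.56e-16). In bulk cells a share of cells that gained CD14 and a gain in every cell cannot be told apart, and the same holds for each gene below.

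In OCI-AML2 the same gene moved the other way, from 7.39, 6.44 and 5.5 TPM in parental cells to 3.57, 3.7 and 3.62 TPM in clone 1 and 2.79, 3.01 and 3.47 TPM in clone 2. Its level there dropped to 56.3% and 48.0% of parental, with log2 changes of -0.68 (SE 0.127, adjusted p = 0.000179, limma) and -0.86 (SE 0.127, adjusted p = 9.8e-06). No clone library reached the lowest parental one. CD14 was thus 7.92 times higher in OCI-AML2 than in OCI-AML3 parental cells (log2 difference -2.06 for OCI-AML3 minus OCI-AML2, adjusted p = 2.71e-11), and the order reversed in the clones.

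CD36, the scavenger receptor, was low in 4 of the 6 groups. In OCI-AML3 it went from 0.81, 1.54 and 1.02 TPM in parental libraries to 41.95, 40.61 and 38.59 TPM in clone 1 and 35.29, 33.46 and 34.82 TPM in clone 2. These are rises of 36.0 and 30.7 times the parental mean, with log2 changes of 4.30 (95% interval 4.06 to 4.53) and 4.08 (3.84 to 4.32). The limma adjusted p was 5.48e-16 for clone 1 and 1.04e-15 for clone 2. OCI-AML2 values were 0.26, 0.19 and 0.12 TPM in parental cells, 0.07, 0.13 and 0.06 TPM in clone 1 and 1.27, 1.17 and 0.75 TPM in clone 2. Only clone 2 stood clear of the parental libraries, and only its change passed (log2 0.79, SE 0.112, adjusted p = 6.61e-06; clone 1 at -0.13, adjusted p = 0.360). With a pseudocount of 0.1 in place of 1, clone 1 passed as lower (log2 -0.63, adjusted p = 0.0315, where its other alternatives gave up to 0.634).

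CD86, the T cell co-stimulator, was nearly silent in OCI-AML3 parental cells, with 0.47, 0.34 and 0.47 TPM. Clone 1 reached 11.73, 12.76 and 11.18 TPM, and clone 2 reached 13.13, 12.19 and 13.38 TPM. The clones were 27.9 and 30.2 times above parental, on the log2 scale by 3.17 (95% interval 3.00 to 3.35) and 3.29 (3.11 to 3.46), with limma adjusted p of 4.55e-16 and 2.81e-16. In OCI-AML2 it went down, from 3.35, 3.59 and 3.75 TPM to 2.38, 2.76 and 2.61 TPM in clone 1 and 1.45, 1.1 and 1.36 TPM in clone 2. The 3 OCI-AML2 groups did not overlap. Clone 1 kept 72.5% of the parental mean and clone 2 36.6% (log2 -0.35, adjusted p = 0.00137, and -0.99, adjusted p = 6.28e-09, limma). CD86 and CD14 thus had the same order of group means, though the CD86 values of the OCI-AML3 clones overlapped.

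CD68, the lysosomal glycoprotein, was by far the most abundant of the 6 in every group. OCI-AML3 parental libraries held 922.32, 777.56 and 769.01 TPM, clone 1 182.96, 179.36 and 202.33 TPM and clone 2 208.12, 232.81 and 206.06 TPM. Its mean dropped from 823 ± 86.2 TPM to 188 ± 12.4 and 216 ± 14.9 TPM, 22.9% and 26.2% of parental. The log2 changes of -2.12 (95% interval -2.36 to -1.88) and -1.92 (-2.16 to -1.69) passed with limma adjusted p of 9.05e-12 and 3.38e-11. OCI-AML2 values were 702.13, 733.96 and 681.48 TPM in parental cells, 848.51, 686.66 and 581.87 TPM in clone 1 and 513.8, 593.78 and 613.81 TPM in clone 2. Clone 1 spread on both sides of the parental libraries (log2 -0.02, 95% interval -0.25 to 0.22, adjusted p = 0.961). Clone 2 lay below them at 81.3% of the parental mean (log2 -0.30, adjusted p = 0.0254, limma). That call ended without OCI-AML2 parental replicate 1 (adjusted p = 0.0512), parental replicate 2 (0.0766) or clone 2 replicate 1 (0.118), and ranged from 0.00806 to 0.118 over the alternatives.

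TREM1, an amplifier of inflammatory signals, fell in the clones of both lines. OCI-AML3 parental cells had 11.66, 11.07 and 10.05 TPM. That compares with 1.7, 0.99 and 1.35 TPM for clone 1, and with 1.56, 1.47 and 1.56 TPM for clone 2. The clones kept 12.3% and 14.0% of the parental mean, with log2 changes of -2.35 (95% interval -2.62 to -2.08, adjusted p = 1.25e-11, limma) and -2.23 (-2.50 to -1.96, adjusted p = 2.55e-11). OCI-AML2 went from 15.34, 15.71 and 12.49 TPM to 7.61, 8.61 and 7.6 TPM in clone 1 and 7.46, 11.26 and 8.98 TPM in clone 2. All clone libraries were below all parental ones here too, at 54.7% and 63.6% of the mean. The log2 changes were -0.79 (SE 0.128, adjusted p = 3.99e-05) and -0.61 (SE 0.128, adjusted p = 0.000402) by limma.

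OSCAR, an activating receptor known from osteoclasts and myeloid cells, stood apart from the other 5 in that its OCI-AML3 level did not pass and its OCI-AML2 level fell furthest. OCI-AML2 parental libraries held 52.41, 49.44 and 57.22 TPM, clone 1 10.3, 10.12 and 8.04 TPM and clone 2 3.07, 3.51 and 4.34 TPM, without overlap between the 3 groups. Clone 1 kept 17.9% and clone 2 6.87% of the parental mean (log2 -2.37, 95% interval -2.60 to -2.15, adjusted p = 2.59e-12, and -3.55, -3.77 to -3.32, adjusted p = 7.08e-15, limma). In OCI-AML3 the values were 127.45, 132.1 and 115.83 TPM in parental cells, 126.08, 129.33 and 129.81 TPM in clone 1 and 138.45, 153.78 and 122.52 TPM in clone 2. Those 3 groups overlapped. The log2 differences were 0.04 (95% interval -0.19 to 0.26, adjusted p = 0.777) and 0.14 (-0.09 to 0.36, adjusted p = 0.257) by limma. After rescaling the libraries by medians of ratios, OSCAR passed as higher in clone 2 (log2 0.31, adjusted p = 0.00848, the lowest over the alternatives, which reached 0.678).

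**Figure D2:**
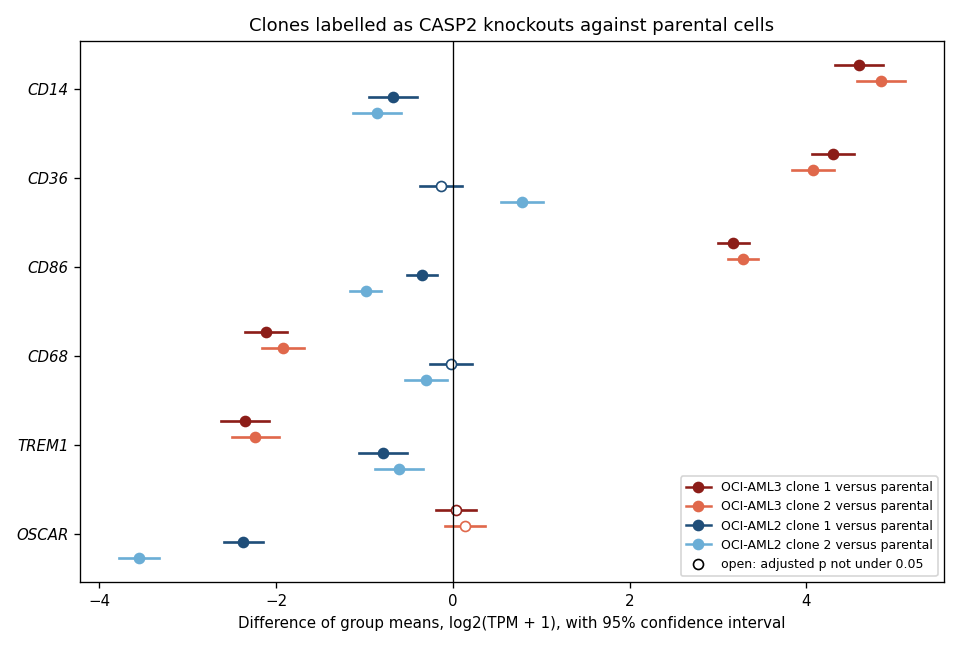
Change of each receptor gene from parental cells to each clone, as the difference of group means in log2(TPM + 1) with its 95% confidence interval, for OCI-AML3 in red and OCI-AML2 in blue. Filled points passed the test, and the 2 clones of OCI-AML3 lie close together for every gene, from 4.60 and 4.84 for CD14 to -2.35 and -2.23 for TREM1.

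In OCI-AML2 the count was 0 of 6 higher and 4 of 6 lower in both clones, namely CD14, CD86, TREM1 and OSCAR, beside 23.8% higher, 14.6% lower and 38.4% in either direction of all tested sets. Of the sets with a settled symbol 28.5% were higher and 17.5% lower. CD36 and CD68 passed in clone 2 alone. Within single comparisons, 72.2% of all tested sets passed in OCI-AML3 clone 1 (31.3% higher, 41% lower) and 73.1% in clone 2 (31.6% higher, 41.5% lower). For OCI-AML2 the shares were 56% in clone 1 (35.1% higher, 20.9% lower) and 65.7% in clone 2 (38.3% higher, 27.5% lower). Of the sets that passed in OCI-AML2 clone 1, 62.6% were higher, and 51.9% after rescaling by medians of ratios. That rescaling shifted the log2 change of each set, with a median shift over all sets of 0.129 and 0.146 in the OCI-AML3 clones, -0.103 in OCI-AML2 clone 1 and -0.125 between the parental lines. No direction called here for the 6 genes turned with it.

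The change from parental to clone was then compared between the lines, as the mean change of both OCI-AML3 clones minus the mean change of both OCI-AML2 clones. CD14 differed most, by 5.49 on the log2 scale (SE 0.155, adjusted p = 2.14e-15, limma). CD86 followed with 3.90 and CD36 with 3.86, then OSCAR with 3.05. CD68 and TREM1 had the more negative change in OCI-AML3, by -1.86 (adjusted p = 8.86e-10) and -1.59 (adjusted p = 4.02e-08). All 6 differences passed, in a comparison where 81.7% of all tested sets did (33.2% higher, 48.5% lower). The comparison includes both parental means. For CD68 and TREM1 it therefore depends in part on the small parental difference for which their lines were accepted. CD14 and CD86 lay above all parental libraries in both OCI-AML3 clones and below all parental libraries in both OCI-AML2 clones. TREM1 lay below the parental libraries in both clones of each line, and its change differed between the lines in size only. How many of all tested sets separated in this way was not counted, and the libraries of a clone are not separate clones.

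Between the OCI-AML3 clones none of the 6 genes passed, where 6.82% of all tested sets did (3.94% higher, 2.88% lower). By limma the log2 differences of clone 2 minus clone 1 ran from -0.22 for CD36 (95% interval -0.46 to 0.02, adjusted p = 0.250) to 0.25 for CD14 (-0.02 to 0.51, adjusted p = 0.254). The 6 intervals together ran from -0.46 to 0.51. The CD14 and CD68 libraries of clone 2 all lay above those of clone 1, and the CD36 libraries all below. How many of all tested sets separated in this way was not counted. Between the OCI-AML2 clones 58.9% of all sets passed (29.9% higher, 29% lower), and CD36 was higher in clone 2 (12.3 times, log2 0.92, adjusted p = 1.62e-06) while CD86 and OSCAR were lower (0.504 and 0.384 of clone 1, log2 -0.64 and -1.18, adjusted p = 2.73e-06 and 3.95e-08). The CD36 ratio is of very low means, 1.06 TPM in clone 2 and 0.0867 TPM in clone 1. CD36 reached the minimum of 1 TPM in 3 libraries only through OCI-AML3 libraries. CD68 was lower in clone 2 as well (log2 -0.28, 95% interval -0.52 to -0.05, adjusted p = 0.0376). That call ended after rescaling (adjusted p = 0.139), in a fit of the OCI-AML2 libraries alone (0.0591), and on leaving out clone 1 replicate 1 (0.262), replicate 2 of that clone (0.0633) or the first library of clone 2 (0.159). Its adjusted p ranged from 0.00314 to 0.262. CD14 (-0.18, -0.45 to 0.09) and TREM1 (0.18, -0.09 to 0.45) did not pass, and TREM1 passed only without OCI-AML2 clone 2 replicate 1 (log2 0.31, adjusted p = 0.0499).

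Before any knockout the lines already differed in most of these genes, where 90.6% of all tested sets passed (47.2% higher, 43.4% lower in OCI-AML3). OCI-AML3 parental cells held less CD86 than OCI-AML2 parental cells by 8.35 times (log2 -1.68, adjusted p = 8.32e-13, limma). They held more OSCAR by 2.36 times (log2 1.22, adjusted p = 3.97e-09) and more CD36 by 5.91 times, both groups being under 2 TPM (log2 0.82, adjusted p = 1.69e-06). CD68 and TREM1 were at 1.17 and 0.753 of the OCI-AML2 level. Their lines were accepted for showing little difference here, so this comparison is given for them as a description only.

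Set in order of group means, the levels ran as follows. CD14 went from OCI-AML3 clone 2 and clone 1 through OCI-AML2 parental, clone 1 and clone 2 to OCI-AML3 parental, with no overlap between neighbours. CD36 was high in both OCI-AML3 clones, and the neighbours OCI-AML3 parental with OCI-AML2 clone 2, and OCI-AML2 parental with clone 1, overlapped. For CD68 the OCI-AML3 parental mean was highest, the 3 OCI-AML2 groups came next with neighbours overlapping, and the OCI-AML3 clones were lowest. TREM1 had its maximum in OCI-AML2 parental cells, then OCI-AML3 parental cells, which overlapped OCI-AML2 clone 2, then OCI-AML2 clone 1, and the overlapping OCI-AML3 clones last. OSCAR had the 3 overlapping OCI-AML3 groups above OCI-AML2 parental, clone 1 and clone 2, which were separate.

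Because CD68 dominated, the makeup of this receptor set shifted in OCI-AML3. The 6 genes summed to 897 to 1063 TPM in OCI-AML3 parental libraries and to 404 to 486 TPM in the clone libraries. CD68 made up 84.2% to 86.7% of that sum in the parental libraries and 44.4% to 48.4% in the clones. In OCI-AML2 its share was 89.6% to 90.7% in parental cells and 96.4% to 97.3% in the clones. The ratio of CD68 to CD14 mean TPM was 1012 in OCI-AML3 parental cells, 4.47 in clone 1 and 4.30 in clone 2, against 110 in OCI-AML2 parental cells, 194 in clone 1 and 186 in clone 2. As levels per length, OSCAR was second to CD68 in all 3 OCI-AML3 groups and in OCI-AML2 parental cells and clone 1, while TREM1 was second in OCI-AML2 clone 2.

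Partners through which these receptors act were read from a list of 53 genes, of which 11 had a settled symbol and were tested. In OCI-AML3 5 of 11 were higher and 4 lower in both clones (median log2 change 0.07). Beside this, 28.7% of all tested sets were higher and 38.3% lower (median -0.06), and of those with a settled symbol, the only ones a list can draw on, 35.8% and 49.6% (median -0.30). TLR4, the signalling partner of CD14, went from 0.323 ± 0.0404 TPM to 2.3 ± 0.539 and 2.21 ± 0.240 TPM (log2 1.31 and 1.28, adjusted p = 9.78e-10 and 1.37e-09). In OCI-AML2, where CD14 fell, TLR4 rose as well, from 5.33 ± 0.141 TPM to 9.86 ± 0.486 and 8.93 ± 0.645 TPM (log2 0.78 and 0.65, adjusted p = 2.13e-06 and 1.3e-05). TYROBP, the adaptor of TREM1, fell with it in OCI-AML3, from 72.0 ± 9.22 TPM to 29.8 ± 2.40 and 32.1 ± 1.88 TPM (log2 -1.24 and -1.13, adjusted p = 6.54e-09 and 2.28e-08, limma). TYROBP stayed 22.1 and 21.0 times as abundant as TREM1 in those clones, and 6.58 times in their parental cells. In OCI-AML2 it was at 544 ± 40.6 TPM in parental cells, 637 ± 65.4 in clone 1 (log2 0.22, adjusted p = 0.0843) and 407 ± 49.5 in clone 2 (log2 -0.42, adjusted p = 0.00201). FCER1G and LY96 were not analysed here, since no settled line carried them.

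Of the remaining partners in OCI-AML3, CTSD, a lysosomal protease (mean log2 change of both clones 1.25), THBS1, a ligand of CD36 (0.98), and PPARG, a lipid-sensing receptor known to induce CD36 (0.89), rose. THBS1 stayed low, at 0.0267 TPM in parental cells, 1.14 TPM in clone 1 and 0.917 TPM in clone 2. The Src family kinase genes FYN (-1.48) and FGR (-0.54) and the exchange factor gene VAV3 (-0.65) fell. In OCI-AML2 4 of 11 were higher and 3 lower (median -0.04), beside 23.8% and 14.6% of all sets (median 0.06) and 28.5% and 17.5% of the settled ones (median 0.07). CARD9, which couples such receptors to NF-kB, fell there (-1.46), from 34.4 ± 2.46 TPM to 16.7 ± 2.46 and 8.64 ± 2.68 TPM, while OCI-AML3 held 41.1, 44.1 and 41.5 TPM in its 3 groups. FGR (1.32) and the co-stimulatory ligand gene ICOSLG (1.26) rose in OCI-AML2. ICOSLG stayed low in that line, at 0.23 TPM in parental cells, 2.17 TPM in clone 1 and 1.84 TPM in clone 2. VAV3 (-0.79) and FYN (-0.56) fell in OCI-AML2 and CTSD (0.39) rose, as in OCI-AML3. In OCI-AML2 clone 2, where CD36 passed as higher, PPARG passed as lower (15.4 to 8.46 TPM) and THBS1 as higher (1.00 to 4.60 TPM). Neither passed in clone 1. TLR4 and PPARG are each counted in 1 further list given next. After rescaling the medians of the partners were 0.23 in OCI-AML3 and -0.11 in OCI-AML2, with the same counts.

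Other surface receptors of monocytes and macrophages, a list of 67 genes with 26 settled and 24 tested, moved in both directions in each line. In OCI-AML3 10 of 24 were higher and 9 lower in both clones (median log2 change 0.07), and in OCI-AML2 11 were higher and 6 lower (median 0.50). The settled sets as a whole had 35.8% higher and 49.6% lower in OCI-AML3 (median -0.30), and 28.5% and 17.5% in OCI-AML2 (median 0.07). Over all tested sets the shares were 28.7% and 38.3% (median -0.06), and 23.8% and 14.6% (median 0.06). TREM2, a lipid-sensing relative of TREM1 that also uses TYROBP, rose in OCI-AML3 from 7.12 ± 1.16 TPM to 63.1 ± 5.66 and 65.3 ± 6.51 TPM (log2 2.99 and 3.03, adjusted p = 1.52e-12 and 1.23e-12, limma), opposite to TREM1. The chemokine receptor gene CCR2 rose from 0.207 ± 0.00577 to 4.39 ± 0.564 and 3.68 ± 0.247 TPM, and the inhibitory Fc receptor gene FCGR2B by a mean log2 of 1.16. Falling were CSF2RB, the shared chain of the GM-CSF receptor (19.6 ± 0.748 to 2.44 ± 0.0961 and 2.24 ± 0.138 TPM), CD300LF (-2.24), the sialic acid receptor gene SIGLEC1 (-2.24) and LILRA2 (-2.10). In OCI-AML2 the formyl peptide receptor genes FPR1 (1.71) and FPR2 (1.36), the lectin gene CLEC4D (1.40) and CD300C (1.31) rose, each under 8 TPM in every group mean of that line. There TLR2 (-1.22), the lectin gene CLEC12A (-1.15), the Fc receptor gene FCGR1A (-1.13) and the lipid antigen presenter gene CD1D (-0.70) fell. FCGR1A, FCGR2B and LILRA2 have near-identical relatives, and their values are uncertain to that extent.

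**Figure D3:**
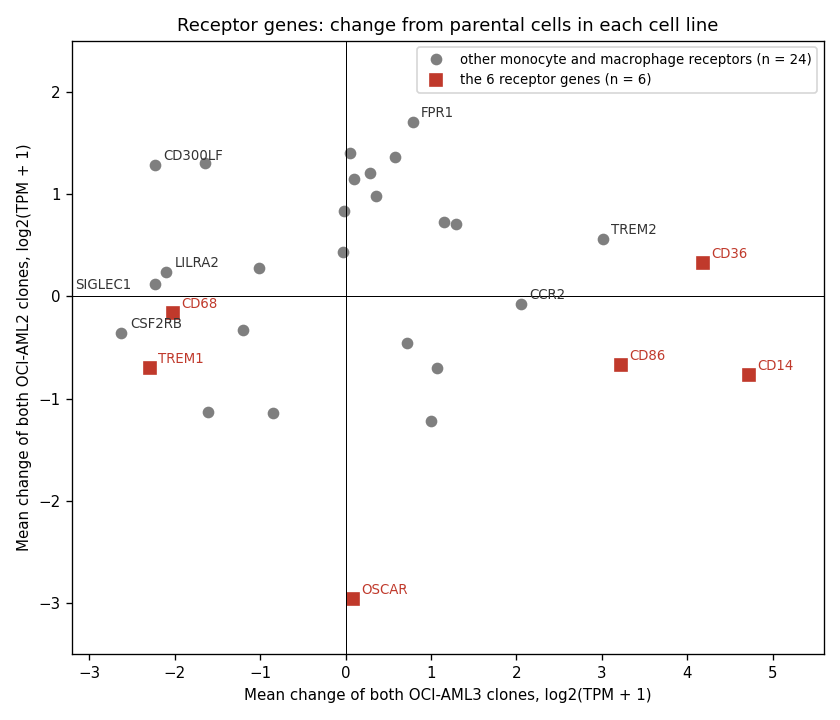
Mean log2(TPM + 1) change of both clones in OCI-AML3 (horizontal) against OCI-AML2 (vertical) for the 6 receptor genes (red squares) and 24 other monocyte and macrophage receptor genes (grey circles). CD14 and CD86 lie at the lower right, CD68 and TREM1 on the left and OSCAR at the bottom near 0 on the horizontal axis, while the other receptors fill all 4 quadrants.

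Transcription factors of monocyte differentiation were a list of 40 genes with 8 tested. In OCI-AML3 3 were higher and 4 lower (median log2 change -0.34), near the 35.8% and 49.6% of settled sets (median -0.30) and beside 28.7% and 38.3% of all sets (median -0.06). The AP-1 gene FOS (mean log2 change 1.45) was among those that rose, with PPARG given above. MITF (-0.99), NR4A1 (-0.91), IRF8 (-0.78) and EGR2 (-0.69) fell. Their OCI-AML3 parental means were 1.75 TPM for MITF, 45.3 for NR4A1, 664.5 for IRF8 and 3.29 for EGR2. In OCI-AML2 2 were higher (TFEC at 1.56 and MITF at 0.31) and 2 lower (IRF8 at -0.74 and FOS at -0.73), and 1 was higher after rescaling. Their median was -0.15, beside 28.5% higher and 17.5% lower of settled sets (median 0.07) and 23.8% and 14.6% of all sets (median 0.06). TFEC was low in OCI-AML2, at 0.393 TPM in parental cells, 2.83 TPM in clone 1 and 3.43 TPM in clone 2.

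Markers of other blood cell types moved in the same libraries, and their part in the changes of the 6 receptors was not tested. The counts below stand beside 28.7% higher and 38.3% lower of all tested sets in OCI-AML3 (35.8% and 49.6% of settled ones) and 23.8% and 14.6% in OCI-AML2 (28.5% and 17.5%). Of 18 granulocyte markers 7 were settled. Their summed level was 13460 to 15200 TPM in OCI-AML3 parental libraries, 3773 to 3928 in clone 1 and 4521 to 5136 in clone 2, with 1 of 7 higher (MMP9) and 3 lower (CTSG, PRTN3 and CXCR2). In OCI-AML2 it was 4451 to 5035 TPM in parental cells, 9222 to 11720 in clone 1 and 3627 to 4543 in clone 2, with 3 higher (CEACAM6, BPI and MMP9) and 0 lower. Those named genes had group means of 171 TPM or less there. AZU1 alone went from 2079 TPM in parental cells to 6751 TPM in clone 1 and 2386 TPM in clone 2, and passed in clone 1 only. CTSG and PRTN3 passed as higher in clone 1 and as lower in clone 2. The sums of 2 of 10 dendritic cell markers (IL3RA and CLEC10A) were 6.16 to 6.43 TPM in OCI-AML3 parental libraries and 13.3 to 17.1 TPM in the clones, both genes being higher. Those of 2 of 12 lymphoid markers (PAX5 and NKG7) were 13.0 to 20.5 TPM against 2.85 to 6.42 TPM, both lower, and ITGA2B, 1 of 12 erythroid and megakaryocyte markers, went from 2.57 to 2.98 TPM to 0.19 to 0.69 TPM. CEACAM6 was listed at 0 in the OCI-AML3 parental libraries, and no other settled marker of these lists was at 0 throughout a group. In OCI-AML2 the dendritic sums were 10.7 to 15.7 TPM in all groups, the lymphoid sums were 68.5 to 72.1 TPM in parental cells and 122 to 196 TPM in the clones (NKG7 higher in both, PAX5 not), and ITGA2B was at 1.03 TPM or less.

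For each receptor the 3 genes with the nearest profile over the 6 group means were taken among the other 2066 tested genes with a settled symbol, by the root mean square distance of centred log2(TPM + 1) values. Nearest to CD14 were the metallothionein gene MT2A (distance 0.61), CD86 (0.62) and SPOCK1 (0.80). For CD36 they were PDE9A (0.37), PDGFA (0.39) and NCF1 (0.53), and for CD86 IL17RC (0.41), SPOCK1 (0.41) and HIST1H2AD (0.44). CD68 had the closest neighbours, TMC8 (0.10), NEU3 (0.12) and GGT1 (0.17). TREM1 was followed by PODXL (0.18), GPR63 (0.24) and RBMS2 (0.28), and OSCAR by KMT2C (0.49), DLX1 (0.57) and NLRP12 (0.60). Among the 6 receptors, CD68 and TREM1 lay 0.32 apart and CD14 and CD86 0.62, whereas CD36 and TREM1 were the most distant at 3.27. PDE9A, the nearest to CD36, went from 1.35 TPM in OCI-AML3 parental cells to 38.9 and 41.2 TPM in the clones and stayed under 0.2 TPM in OCI-AML2. NLRP12 followed OSCAR in OCI-AML2, from 5.53 TPM to 1.36 and 0.720 TPM, and was at 16.0, 15.3 and 16.8 TPM in the OCI-AML3 groups. These distances rest on 6 means from the same libraries and are a description. The lines of CD68 and TREM1 were accepted for similar parental means, as were 611 of the 2262 settled sets. Small distances of CD68 and TREM1, to each other and to their neighbours, were thus partly favoured by that rule.

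**Figure D4:**
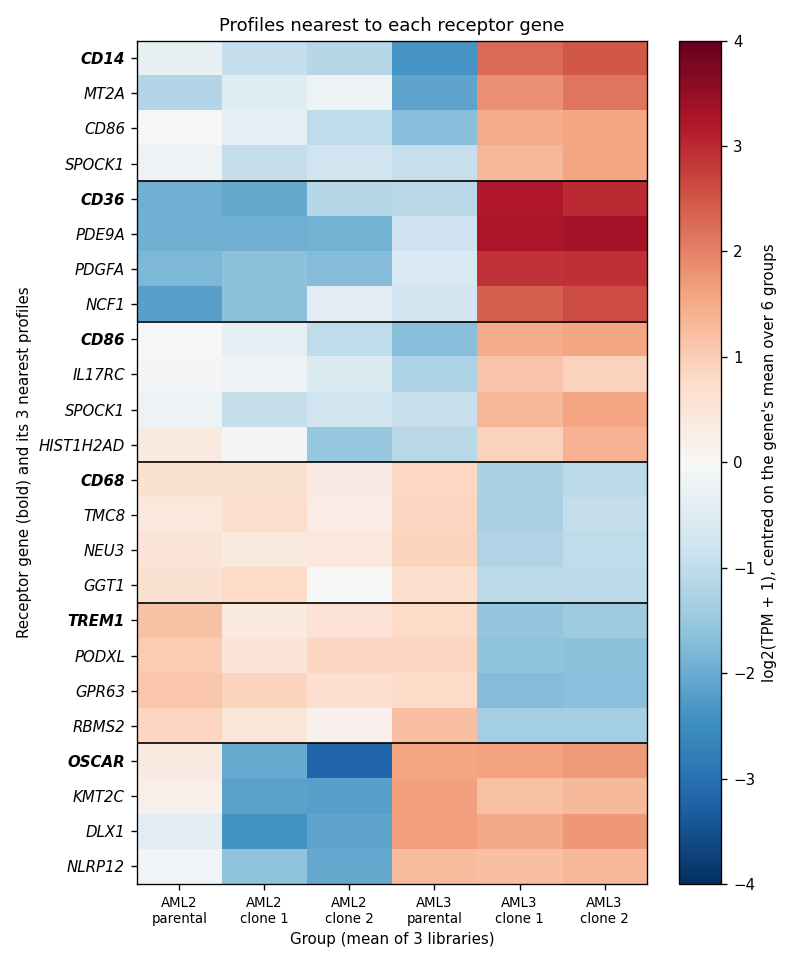
Group means of log2(TPM + 1), centred on each gene's mean over the 6 groups, for each receptor gene (bold) and its 3 nearest genes, with red above and blue below the gene's own mean. The rows of CD14, CD36 and CD86 are red in the OCI-AML3 clones, those of CD68 and TREM1 are blue there, and those of OSCAR are blue in the OCI-AML2 clones.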

How the data were processed

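Values were TPM per gene and library in 1 table deposited by the authors, per the file headers. Per the labels' protocols, RNA was extracted on columns and libraries were made at a BGI Americas facility. The aligner and genome build were not given in the sources used here, and read depth is unknown. All 18 value columns matched a sample title.

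The table held 6999 lines, 4816 symbols and 5069 distinct sets of values. A symbol was settled for 2262 sets: 575 repeated under it, 1076 through the order of the OCI-AML3 clone 1 values, and 611 in a single line with a parental log2 ratio under 0.6. Replicate numbers within OCI-AML3 clone 1 are uncertain, as that order varied.

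limma 3.58.1 (R 4.3.3, intensity trend) was fitted to log2(TPM + 1) of all 18 libraries with 1 mean per group, over the 4413 sets that reached 1 TPM in 3 or more libraries. Fold changes on this scale understate those of low genes, and ratios are of mean TPM. Two-sided p-values had Benjamini-Hochberg adjustment over all sets within each of 8 comparisons. The code was tested on simulated data. The genes and lists were chosen with earlier results of these data known. Named from each list were the adaptors and at most 4 genes per direction and line with the largest mean change among those called in both clones. Besides these, AZU1, CTSG, PRTN3, THBS1 and PPARG were given for OCI-AML2, where both clones did not pass in the same direction. One result of these lists is not reported here. Alternatives were a pseudocount of 0.1, a minimum of 5 TPM or none, rescaling by medians of ratios, no trend, the cell line's libraries alone, the replicate number as a block, and each library left out.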

Additional observations from a re-analysis of the deposited data

Results flagged for a closer look

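The change from parental cells to clones differed between OCI-AML3 and OCI-AML2, by limma's test of the difference itself, for all 6 receptor genes and for the targeted gene. The difference of mean log2(TPM + 1) changes, OCI-AML3 minus OCI-AML2, was 5.49 for CD14, 3.86 for CD36, 3.90 for CD86, 3.05 for OSCAR, -1.86 for CD68 and -1.59 for TREM1. For CASP2, which fell in the OCI-AML2 clones alone, it was 2.95. Of all tested sets 81.7% passed in this comparison. For CD68 and TREM1 it includes the parental difference whose small size was the reason their lines were accepted.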

How the results depend on the processing

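Of 1185 values of the 6 receptor genes under 25 alternatives, 1169 kept their direction and their side of the threshold. Another 8 lost and 5 gained a call, all named with the results except CD68 between the parental lines. By limma it passed there without OCI-AML2 clone 1 replicate 1 (adjusted p = 0.0346) or replicate 3 (0.0397). The 1185 values include the parental comparison of CD68 and TREM1. For both it is a description only, as their lines were accepted for a small parental difference. The 3 reversals were of differences near 0 that passed in no setting: OSCAR in OCI-AML3 clone 1 without OCI-AML3 parental replicate 3 (log2 -0.015, in a range up to 0.079 without single libraries), and CD68 in OCI-AML2 clone 1 without OCI-AML2 parental replicate 2 (0.012) or clone 1 replicate 3 (0.113, in a range from -0.158). The count of sets that differed between the OCI-AML3 clones, 301, was 166 with a pseudocount of 0.1 and 409 after rescaling by medians of ratios. It was 102 to 369 without single libraries, 102 being without OCI-AML3 clone 2 replicate 2. The counts of the other 7 comparisons stayed within 1.5 times. With the replicate number as a block, 241 sets differed between the OCI-AML3 clones and no call of the 6 genes changed. Of 45 same-numbered pairs of libraries from different groups, 5 had deviations correlated over 0.1 (median r = -0.03). Only 1 of 18 libraries correlated best with its own number. Whether same-numbered libraries were handled together was not tested, and replicate numbers of OCI-AML3 clone 1 are uncertain. CD36 could not be judged by depth at its OCI-AML2 levels, because TPM keeps no read numbers.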

Other observations

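A further list was drawn up for internal and secreted proteins of monocytes and macrophages, with 18 of 41 genes tested. It also holds genes of membrane proteins, such as those of the MS4A family. In OCI-AML3 10 were higher and 6 lower in both clones (median log2 change 1.16), and in OCI-AML2 7 were higher and 2 lower (median 0.27), or 4 lower after rescaling. Of settled sets 35.8% were higher and 49.6% lower in OCI-AML3 (median -0.30), and 28.5% and 17.5% in OCI-AML2 (median 0.07). Of all tested sets it was 28.7% and 38.3% (median -0.06), and 23.8% and 14.6% (median 0.06). Besides CHI3L1 (9.05), the rises in OCI-AML3 were led by the NADPH oxidase genes CYBB (5.21) and NCF1 (3.26, a gene with near-identical pseudogenes) and by LGALS3, whose product is a galectin (2.60). The membrane-spanning MS4A family genes MS4A6A (-2.56) and MS4A7 (-1.94), the lysosomal cholesterol carrier gene NPC2 (-1.23) and AIF1 (-1.01) fell there, as CD68 did. In OCI-AML2 the chemokine gene CCL2 (5.08), NCF1 (1.16), AIF1 (1.05) and CYBB (1.00) rose, and the cytokine gene IL1B (-1.22) and the protease inhibitor gene SERPINA1 (-0.54) fell. Summed over the 18 genes, OCI-AML3 went from 683 to 750 TPM in parental libraries up to 5539 to 6364 TPM in the clones, of which CHI3L1 alone had a mean of 4745 TPM in clone 1 and 5076 TPM in clone 2.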
